A study of Mus musculus with 16 samples.

Results

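The basal mammary keratins Krt5, Krt14, Krt15, Krt17 and Krt6a were examined together with Trp63, the gene of the transcription factor p63, and Oxtr, the oxytocin receptor, in primary mammary tumors of MMTV-PyMT mice. These 7 genes were chosen by name from earlier results on the same tumors, all 7 had a row in the table of 23609 genes, and all 7 were among the 21034 genes that averaged 10 or more over the tumors. The wildtype tumors came from mice carrying the MMTV-PyMT transgene, which expresses the polyoma middle T antigen from a promoter active in mammary epithelium. The gene trap tumors came from littermates that carried the same transgene and were Resf1 +/-, with a lentiviral enhancer and gene trap insertion in the first exon of Resf1 that makes an EGFP/Cre fusion. The labels list 8 tumors of each genotype, and values of 5 wildtype and 5 gene trap tumors were used. Tumors of the cross were collected at a humane endpoint, and the age of the mice is not given in the sources used here. RNA was total RNA of whole tumor tissue, so fewer cells of a type and less RNA per cell cannot be told apart.

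The mammary duct has an inner luminal layer and an outer basal or myoepithelial layer. Basal cells make the keratin pair Krt5 and Krt14, which assemble with each other into filaments, and depend on p63, the regulator of basal cell identity in stratified and glandular epithelia. They also contract in response to oxytocin to eject milk, through smooth muscle actin and myosin. Krt15 marks basal cells of stratified epithelia, while Krt17 and Krt6a are keratins of hair follicles that are also made in stressed and healing epithelium. Krt5 and Krt6a are type II keratins on mouse chromosome 15, and Krt14, Krt15 and Krt17 are type I keratins on chromosome 11, Trp63 is on chromosome 16, and Oxtr is on chromosome 6, as is Resf1. The question addressed here was whether the keratins vary with Trp63 and with each other from tumor to tumor.

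The 250 bases before the RefSeq start site of Krt5 are shown because Krt5 was the keratin closest to Trp63 across the tumors. The window is chr15:101712906-101713155 on the minus strand of GRCm38.p6, which is an older build than the mm39 of the expression values. Capitals mark the matches of searched motifs, which are a p53-family core and a box of the TATA type.

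Krt5 upstream window: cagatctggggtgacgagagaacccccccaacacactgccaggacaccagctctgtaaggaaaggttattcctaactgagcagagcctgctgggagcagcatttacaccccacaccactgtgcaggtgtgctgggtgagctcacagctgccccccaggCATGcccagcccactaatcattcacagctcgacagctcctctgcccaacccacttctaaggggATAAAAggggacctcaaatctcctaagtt

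The TATA-type motif searched on both strands was ATAAAA. It was found on the gene's strand and began at base -29, where -1 is the last base before the start site, and was present in 17.0% of the 32851 RefSeq windows of this length. CATG, the core of a p53-family half-site and its own reverse complement, began at -92 and was present in 53.9% of the windows. The AP-1 motif TGANTCA, searched on both strands and held by 6.75% of the windows, had no match in the Krt5 window. These matches are letters in a window and not measured binding. The RefSeq table held windows for 3 of the 7 genes. Those of Krt14 and Oxtr lie at starts 1480 and 1210 bases inside the gene, and neither is shown.

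Values are deposited signals, which are estimated reads per gene scaled between tumors by median ratio and not by length, and they are called normalized values below. Column totals ranged from 31995078 to 42153593, but the read depth is unknown, so no counting interval is given. Gene trap replicate 2 stood apart from the rest, with 863 genes over 2-fold lower than in every other tumor (8 to 40 genes in the other tumors) and 225 over 2-fold higher (4 to 55). Some of the correlations described in the text are therefore given both ways, and others also moved without that tumor. The luminal keratins Krt8 and Krt18 and the epithelial marker Epcam were high in all 10 tumors, with Krt8 between 16809 and 24801, Krt18 between 18434 and 35379, and Epcam between 19190 and 25278. The basal laminin and hemidesmosome genes were present in every tumor as well, and Dst, which encodes the basal plakin dystonin, ranged from 14602 to 21274. Resf1 averaged 4099 ± 400 (SD, n = 5) in wildtype and 3516 ± 361 (SD, n = 5) in gene trap tumors. Of the 5 gene trap tumors, 3 lay below every wildtype tumor for Resf1, and the difference of -0.22 on the log2 scale (SE 0.09) gave limma p = 0.0313, adjusted p = 0.9997, and an exact two-sided permutation p = 0.0635.

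Krt14, the type I partner of Krt5, had the highest level per length of the 7 genes. Per kilobase of the longest coding transcript, the median normalized value was 1133 for Krt14, 368 for Krt5, 334 for Krt17, 126 for Trp63, 107 for Oxtr, 104 for Krt15 and 79.3 for Krt6a. Krt14 was above Krt5 in 10 of 10 tumors, Krt5 above Krt17 in 8, Krt17 above Trp63 in 10, and Trp63 above Oxtr in 7. Oxtr was above Krt15 in 4 of 10 tumors and Krt15 above Krt6a in 7, so these neighbours changed order from tumor to tumor. The order was the same with the median transcript length in place of the longest, which matters for Trp63 with its 8 coding transcripts. The table counts genes and does not separate p63 isoforms. Krt6a has the near-identical copy Krt6b, and Krt14, Krt16 and Krt17 resemble each other, so reads of these genes could be split between copies in ways the table does not show.

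Krt6a was by far the most variable of the 7 genes. Its normalized values were 99.4, 160, 201, 304 and 18.5 in wildtype replicates 1 to 5 and 19.0, 26.2, 265, 206 and 216 in gene trap replicates 1 to 5. Wildtype replicate 5 and gene trap replicates 1 and 2 were low, the other 7 tumors were at 99.4 or higher, and both genotypes held low and high tumors. The range was 16.4-fold, and the SD over tumors was 1.59 on the log2 scale, larger than that of 99.6% of the tested genes. Krt15 was next, with an SD of 0.77 (larger than 95.7% of the tested genes). Krt17 had an SD of 0.52, Krt5 0.48, Oxtr 0.45, Trp63 0.35 and Krt14 0.27, and the median over all tested genes was 0.25. Krt14, the most abundant, thus varied about as much as a typical gene.

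Trp63 was measured at 954, 638, 659, 755 and 1159 in wildtype replicates 1 to 5 and at 691, 521, 663, 551 and 766 in gene trap replicates 1 to 5. Wildtype replicates 1 and 5 were above every gene trap tumor, and gene trap replicates 2 and 4 were below every wildtype tumor. Krt5 was measured at 1148, 1353, 788, 829 and 1001 in the wildtype tumors and at 770, 550, 747, 768 and 1685 in the gene trap tumors. Gene trap replicate 5 held the highest Krt5 of all tumors, and the other 4 gene trap tumors were below all 5 wildtype tumors. Krt14 was at 1519, 2343, 1879, 2307 and 1970 in wildtype and at 1481, 2117, 1563, 1460 and 2034 in gene trap tumors. Krt14 was lowest in wildtype replicate 1 and gene trap replicates 1, 3 and 4, at 1460 to 1563, and lay at 1879 or higher in the other 6 tumors.

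Krt15 was at 371, 192, 144, 110 and 219 in wildtype replicates 1 to 5 and at 153, 167, 94.5, 185 and 569 in gene trap replicates 1 to 5, again with gene trap replicate 5 the highest. Krt17 was at 716, 857, 1035, 502 and 467 in wildtype and at 370, 320, 532, 469 and 564 in gene trap tumors. Wildtype replicates 1, 2 and 3 were above every gene trap tumor for Krt17, and the remaining wildtype tumors fell within the gene trap range. Oxtr was at 540, 825, 353, 639 and 469 in wildtype and at 611, 386, 599, 374 and 308 in gene trap tumors, and the groups overlapped.

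**Figure D1:**
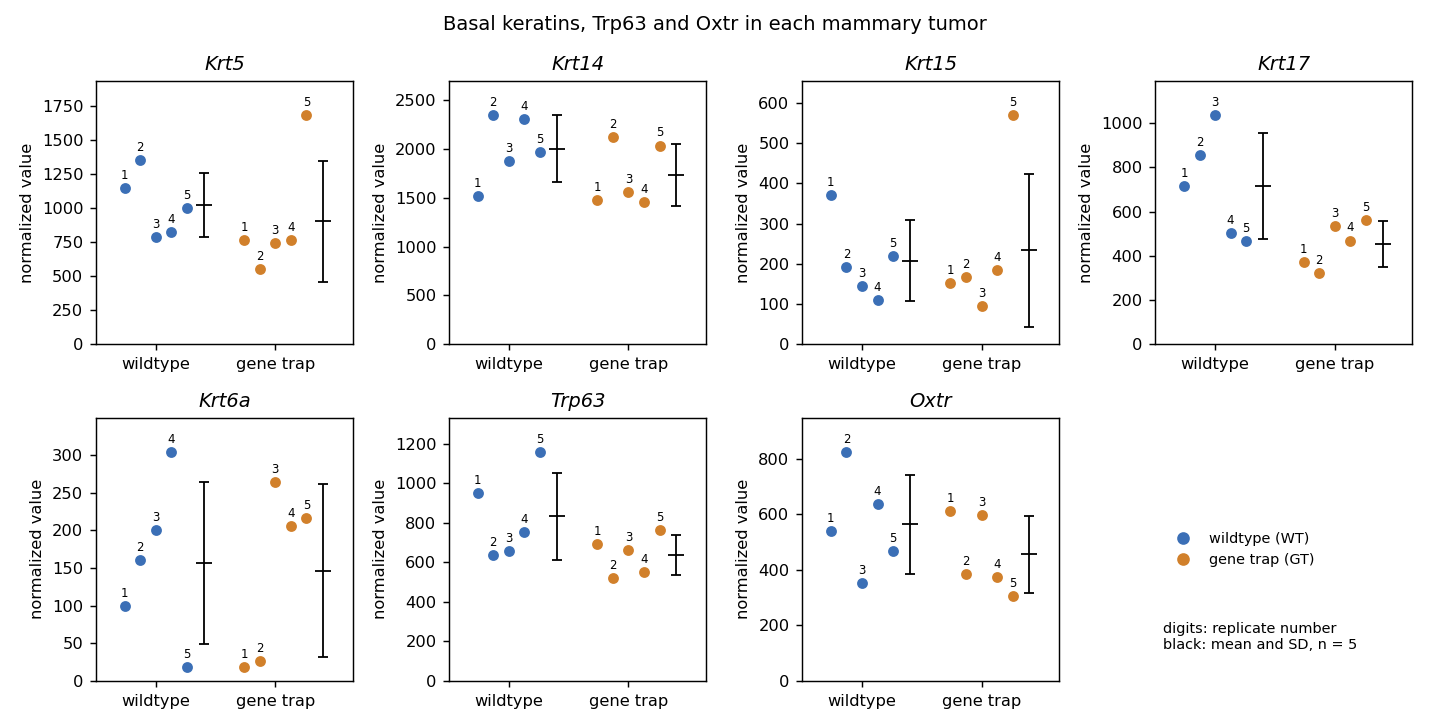
Normalized value (y axis, linear, from 0) of each of the 7 genes in the wildtype (blue) and gene trap (orange) tumors, with the replicate number above each point and the mean and SD (n = 5) in black. Krt6a falls to 18.5 to 26.2 in 3 tumors of both genotypes, and gene trap replicate 5 is highest for Krt5 (1685) and Krt15 (569).

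The keratins ranged from moderately positive to weakly negative in their correlation with Trp63. Over the 10 tumors, Pearson's r with Trp63 on log2 values was 0.48 for Krt5 (Spearman's rho 0.60), 0.38 for Krt15 (rho 0.38), 0.15 for Krt17 (rho 0.10), 0.01 for Krt14 (rho -0.05) and -0.24 for Krt6a (rho -0.12). The median of these 5 values was 0.15, and it turned to -0.29 when each value was taken as its deviation from its genotype's mean, where Krt17 had r -0.30 and Krt14 r -0.29 with Trp63. Without gene trap replicate 2, r with Trp63 was -0.12 for Krt17. All such correlations are descriptions over the same 10 libraries, with no p, and the genes share the scaling of each library. An r to Krt5 at least as high as that of Trp63 was found for 12.2% of the tested genes, so the Krt5 and Trp63 value is not unusual among genes.

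The relation of Krt5 to Trp63 depended on a few tumors. Without gene trap replicate 5 and wildtype replicate 2, the tumors farthest from the median for Krt5, r was 0.86, and without gene trap replicate 2 it was 0.30. Gene trap replicate 5 and wildtype replicate 2 had high Krt5 (1685 and 1353). Their Trp63 was 766, the highest of the gene trap tumors, and 638, the lowest of the wildtype tumors, beside a median of 677 over all tumors. They also had the highest values of Krt10, a keratin of differentiating squamous epithelium, at 671 and 1270 against 49.9 to 256 in the other 8 tumors. Whether Krt10 has a part in the Krt5 values was not tested. For Krt6a, r with Trp63 changed sign, to 0.21 without wildtype replicate 5, the tumor with the highest Trp63 and the lowest Krt6a, and was -0.55 without gene trap replicate 2.

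**Figure D2:**
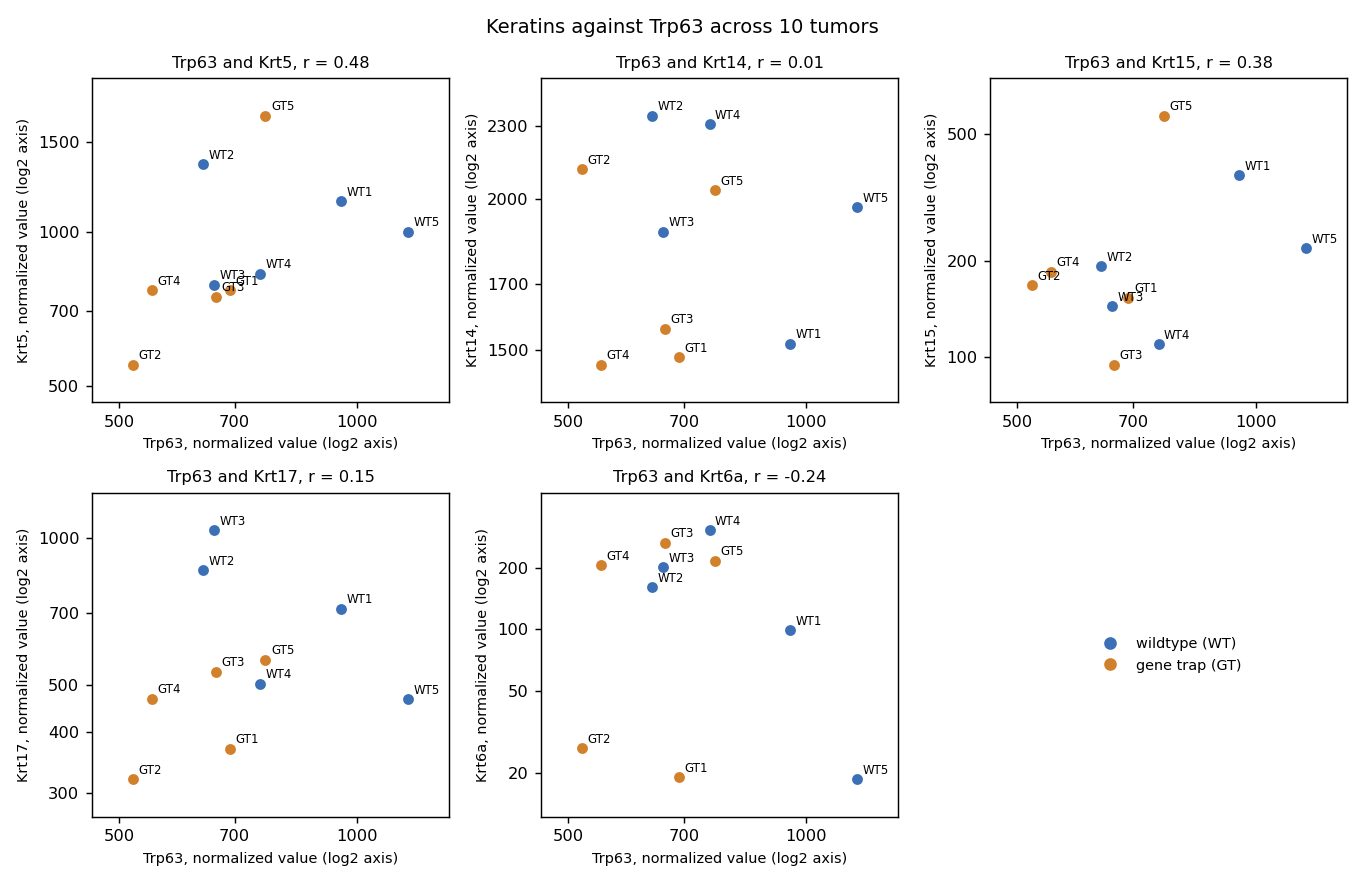
Each keratin (y axis) against Trp63 (x axis) in the 10 tumors, as normalized values on log2 axes, wildtype in blue and gene trap in orange with replicate numbers. Krt5 (r 0.48) and Krt15 (r 0.38) lean upward with Trp63, while Krt14 (r 0.01) and Krt17 (r 0.15) show little slope and Krt6a (r -0.24) is low at the highest Trp63 value and in 2 tumors with less Trp63.

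Among the keratins themselves, only Krt5 with Krt15 and Krt17 with Krt6a had r above 0.5. Of the 10 keratin pairs 9 had r above 0, with a median of 0.20, which turned to -0.043 without the 2 tumors farthest on the first gene of each pair. Of all 21 pairs of the 7 genes 17 had r above 0, with a median of 0.12, and 2 had r above 0.5. For single members of the 7, 47.8% to 52.3% of all tested genes had r above 0. An r of at least 0.5 was found for 5.00% to 10.96% of all tested genes. Krt5 and Krt15 had r 0.74 (rho 0.68), and 0.78 for deviations from the genotype means. It was 0.58 without the 2 tumors farthest on Krt5, 0.52 without gene trap replicate 5 and 0.35 without the 2 tumors farthest on Krt15, gene trap replicate 5 and wildtype replicate 1. Over all 10 tumors, 0.908% of the tested genes had an r to Krt5 at least as high as that of Krt15. Krt17 and Krt6a had r 0.57 (rho 0.39), but -0.48 when the 3 tumors lowest in Krt6a were left out, an alternative chosen after seeing the data. An r to Krt17 at least as high as that of Krt6a was found for 5.94% of the tested genes. Krt5 and Krt14, which pair in the filament, had r 0.24 (rho 0.36), -0.24 without gene trap replicate 5 and wildtype replicate 2, and 0.48 without gene trap replicate 2.

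**Figure D3:**
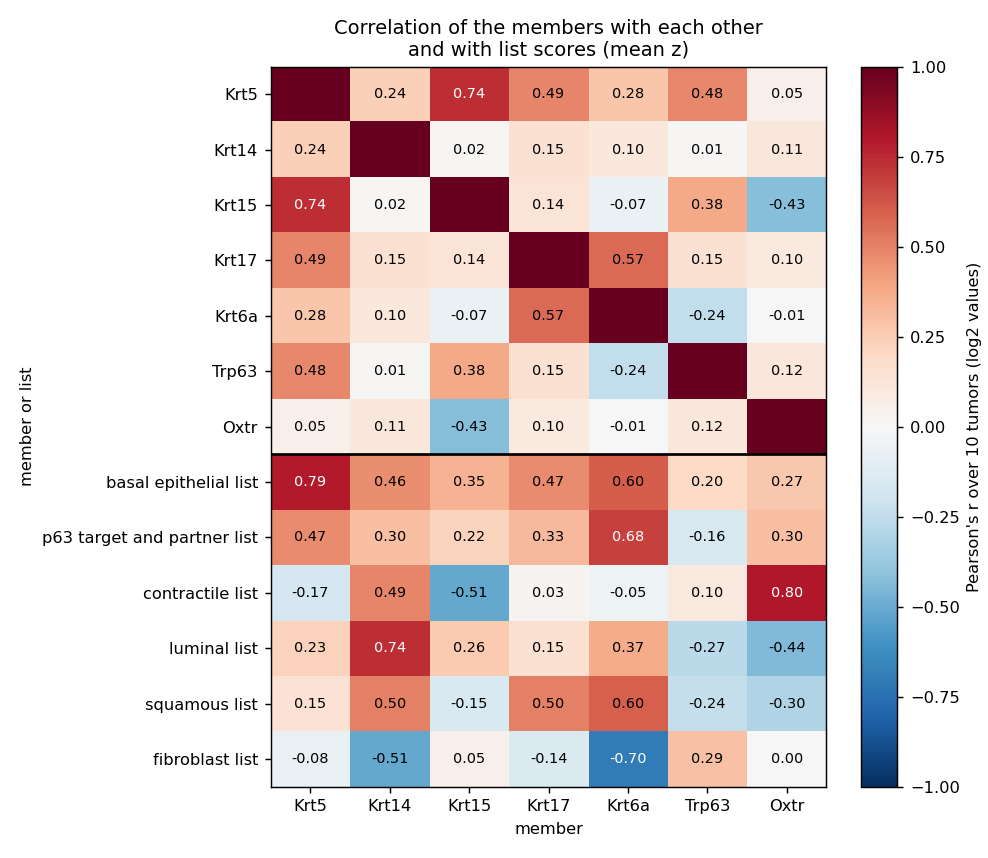
Pearson's r over 10 tumors (log2 values) for each pair of the 7 genes (above the line) and for each gene with the mean z score of 6 marker lists (below the line), from blue at -1 to red at 1. The highest values off the diagonal are Oxtr with the contractile list (0.80), Krt5 with the basal list (0.79), and Krt5 with Krt15 and Krt14 with the luminal list (both 0.74).

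The marker list with the highest r was not the same for Krt5, Krt14, Oxtr and Krt6a. Krt5 went with other basal genes. The mean z score of 25 basal epithelial markers, none of them among the 7 genes, had r 0.79 with Krt5 (rho 0.77), 0.73 without gene trap replicate 2 and 0.46 without gene trap replicate 5 and wildtype replicate 2. Of those 25 markers 8 had r of at least 0.5 with Krt5 and 21 had r above 0, beside 10.6% and 48.5% of all tested genes. The most abundant of the 25, Dst, Itga6 (the hemidesmosome integrin alpha 6) and Egfr, had r 0.29, 0.44 and 0.30 with Krt5. Without gene trap replicate 2, these were -0.04, 0.17 and 0.30. Named after their values were seen, Bnc1, a zinc finger factor of basal keratinocytes, had r 0.82 with Krt5, and Col17a1, the hemidesmosome collagen, had r 0.67.

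The same basal list had r 0.20 with Trp63 (rho 0.39), and the value depended on the tumors used. It was -0.02 without gene trap replicate 2, 0.56 without wildtype replicate 5 and 0.76 without wildtype replicates 5 and 1, the 2 tumors farthest on Trp63. Among single basal genes, Dst had r 0.77 with Trp63 (0.70 without gene trap replicate 2), which 0.708% of the tested genes reached or exceeded. Lama3, the laminin alpha 3 chain, and Vcan, the matrix proteoglycan versican, both named after their values were seen, had r 0.73 and 0.70. Of the 25 basal genes only 4 had r of at least 0.5 with Trp63 and 15 had r above 0, beside 10.96% and 50.9% of all tested genes. Their median r with Trp63 was 0.10. A list of 23 genes known as targets or partners of p63, which shares members with the basal list, had r -0.16 with Trp63 as a score, -0.25 without gene trap replicate 2 and 0.53 without wildtype replicate 5. In that list 10 of 23 genes had r above 0 with Trp63, beside 50.9% of all tested genes. Its most abundant genes were Dst, Dsp (desmoplakin, r -0.33) and Esrp1 (an epithelial splicing regulator, r 0.27).

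The lists with the highest r to Trp63 over all 10 tumors were not epithelial. The score of 4 endothelial markers had r 0.57 with Trp63 (rho 0.48), with all 4 at r of at least 0.5 beside 10.96% of all tested genes, and the score of 4 immune markers had r 0.55 (rho 0.53), with 1 of 4 at r of at least 0.5. Without gene trap replicate 2 these scores had r 0.41 and 0.50 with Trp63. Without wildtype replicates 5 and 1 they had r 0.27 and 0.30 with Trp63, below the 0.76 of the basal list in the same 8 tumors. The part of these cell types in the Trp63 values was not tested.

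Krt14 went with luminal genes. The score of 14 luminal markers had r 0.74 with Krt14 (rho 0.67), between 0.68 and 0.80 with any single tumor left out, and 0.74 without the 2 tumors farthest on Krt14. Of the 14 markers 13 had r above 0 and 8 had r of at least 0.5 with Krt14, beside 48.2% and 7.96% of all tested genes. The 3 most abundant were Krt18 (r 0.58), Epcam (r 0.38) and Krt8 (r 0.67), and Krt7, a simple epithelial keratin named after its values were seen, had r 0.70. The same luminal score had r 0.23 with Krt5 (0.46 without gene trap replicate 2), -0.27 with Trp63 and -0.44 with Oxtr. The basal list had r 0.46 with Krt14, and 0.68 without gene trap replicate 2, where the luminal list had 0.72, so the gap between the luminal and basal lists rested largely on that tumor. Itgb4, the hemidesmosome integrin beta 4, named after its values were seen, had r 0.75 with it. The fibroblast list had r -0.51 with Krt14, and the part of tissue makeup in these values was not tested.

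Oxtr went with contractile genes. Its r with the 5 keratins lay between -0.43 (Krt15) and 0.11 (Krt14), and it was 0.12 with Trp63. The score of 11 contractile markers had r 0.80 with Oxtr (rho 0.78) and 0.88 without gene trap replicate 2. This r was 0.65 without wildtype replicate 2 and gene trap replicate 5, the 2 tumors farthest on Oxtr. The r of the same score ranged from -0.51 to 0.49 over the 5 keratins and was 0.10 with Trp63. All 11 contractile genes had r above 0 with Oxtr and 7 had r of at least 0.5, beside 49.6% and 6.73% of all tested genes. Acta2, smooth muscle actin, had r 0.85 (rho 0.92), while Cald1 (caldesmon) and Tpm2 (beta tropomyosin), also among the 3 most abundant, had r 0.43 and 0.20.

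Myh11, smooth muscle myosin heavy chain, named after its values were seen, ranked 10 among all tested genes by r with Oxtr (0.88, rho 0.92). Myh11 was at 1203, 1513, 909, 1220 and 981 in wildtype replicates 1 to 5 and at 1049, 758, 1072, 533 and 427 in gene trap replicates 1 to 5, and both genes were highest in wildtype replicate 2 and lowest in gene trap replicate 5. Vascular smooth muscle makes the same contractile proteins. A list of 5 vascular smooth muscle and pericyte genes had r 0.63 with Oxtr, with 1 of the 5 at r of at least 0.5, and among its most abundant genes Mcam had r 0.80, Rgs5 0.00 and Notch3 0.15. The part of vessels in the Oxtr values was not tested. In the oxytocin system, Plcb1, the phospholipase C beta 1 that acts downstream of the receptor, had r 0.81 with Oxtr, Gnaq, the G protein alpha subunit between them, 0.09, and the vasopressin receptor Avpr1a 0.59.

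Several lists had similar r with Krt6a. Of the list scores, that of the p63 list had r 0.68 with Krt6a (0.29 without the 2 tumors farthest on Krt6a), that of the 2 measured hair follicle genes 0.66, that of 13 other keratin genes 0.64, and those of the basal and the squamous and keratinocyte lists both 0.60. Dsg3, the desmosomal cadherin desmoglein 3, and Sprr1a, a cornified envelope precursor, both named after their values were seen, had r 0.86 (rho 0.62) and 0.83 (rho 0.70) with Krt6a. Dsg3 was 26.5 in wildtype replicate 5 and 16.9 and 12.7 in gene trap replicates 1 and 2, the tumors lowest in Krt6a, and 49.3 to 202 in the other 7. Among those 7, Krt6a was lowest in wildtype replicate 1 (99.4) and highest in wildtype replicate 4 (304). Dsg3 was 104 and 87.9 in these 2 tumors, and Sprr1a was 82.4 and 88.5. The r of either gene with Krt6a was not computed without the 3 low tumors, so a graded relation is not shown. Of the 5 measured squamous and keratinocyte markers, 1 had r of at least 0.5 with Krt6a, beside 9.59% of all tested genes. The other 15 genes of that list of 20 had no row under their symbol, so most squamous markers could not be examined. Of its 3 most abundant, Sbsn had r -0.12 with Krt6a (0.14 without gene trap replicate 2), Tgm1 0.10 and Krt10 0.41. The fibroblast list had r -0.70 with Krt6a, -0.86 without gene trap replicate 2 and -0.17 without the 2 tumors farthest on Krt6a. Its part in the Krt6a values was not tested.

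**Figure D4:**
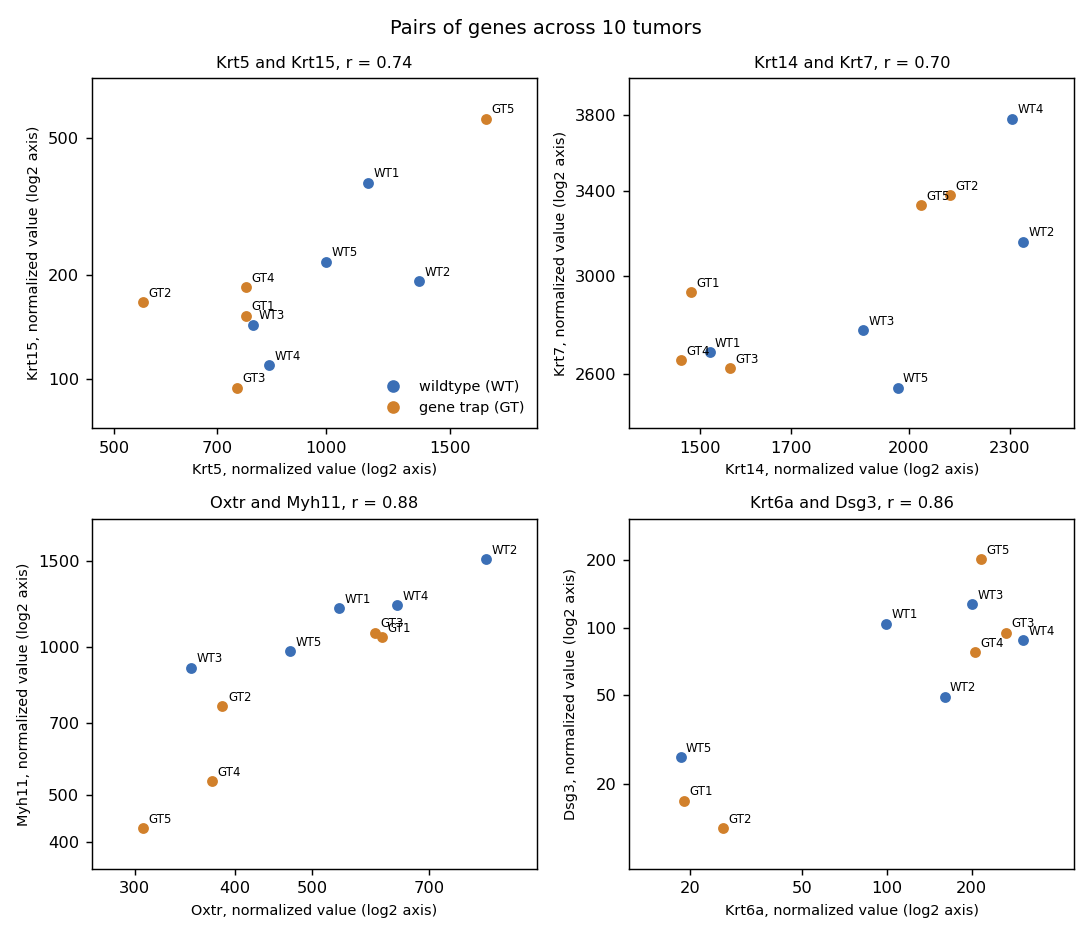
Pairs of genes in the 10 tumors (normalized values, log2 axes, wildtype in blue and gene trap in orange with replicate numbers): Krt15 against Krt5, Krt7 against Krt14, Myh11 against Oxtr and Dsg3 against Krt6a. The Oxtr and Myh11 points lie closest to a line (r 0.88), and the Krt6a and Dsg3 points (r 0.86) split into 3 low tumors and 7 higher ones.

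The 5 genes whose pattern was most like that of Trp63, Krt5, Krt14 or the mean score included none of the basal list, although Bnc1 of that list ranked 34 for Krt5. By Pearson's r over the 10 tumors, the genes most like Trp63 included Dhx57, Aox1, Gm13219 and Gm7997 (r 0.91 to 0.93). Krt5 was most like Sec22a, Dpy19l4, Tmem30a, Vps26c and Pafah1b1 (r 0.90 to 0.93), and Krt14 was most like Tnfsf13os, Hrct1, Sync, Baiap2 and Cap1 (r 0.89 to 0.94). The mean z score of the 7 genes was most like Efcab1, Gm7582, Bdnf, Slc35b3 and Ankra2 (r 0.89 to 0.97). Values of r of at least 0.8 were reached by 97 tested genes for Trp63, 73 for Krt5, 52 for Krt14 and 50 for the score, so such values are found for many genes with 10 tumors. Some of these genes moved little in amount, as Sec22a only ranged from 1077 to 1381.

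Genotype was compared last. The mean of 6 of the 7 genes was lower in gene trap tumors on the log2 scale, but none passed the test over all genes. Adjusted p was 0.9997 for each of the 7 genes by limma, and 0 of the 21034 tested genes (0% of them) passed an adjusted p of 0.05. At an unadjusted p under 0.05, 1 of the 7 genes passed, beside 479 tested genes (2.28%). That gene was Krt17, with a mean of 716 ± 239 (SD, n = 5) in wildtype and 451 ± 104 (SD, n = 5) in gene trap tumors. Its log2 difference was -0.63 (SE 0.23, 95% interval -1.13 to -0.13), with limma p = 0.0174 and an exact two-sided permutation p = 0.0714, where 252 arrangements allow no p below 0.00794.

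Trp63 averaged 833 ± 221 (SD, n = 5) in wildtype and 639 ± 101 (SD, n = 5) in gene trap tumors, with a log2 difference of -0.36 (95% interval -0.73 to 0.01) and an exact permutation p = 0.135. Krt5 had a log2 difference of -0.26 (95% interval -0.82 to 0.29), Krt14 -0.21 (-0.52 to 0.10), Oxtr -0.31 (-0.83 to 0.22) and Krt6a -0.32 (-2.22 to 1.59). Krt15 had 0.01 (-0.93 to 0.95). The exact permutation p of these 5 genes lay between 0.230 and 0.976. The Krt15 value was -0.38 and the Krt5 value -0.51 without gene trap replicate 5, while Krt6a was 0.12 without gene trap replicate 2. With 1 tumor left out, the unadjusted limma p of Krt17 stayed between 0.00511 and 0.0478. It was under 0.05 for Krt5 without gene trap replicate 5 (0.0110), for Krt14 without wildtype replicate 1 (0.0407) and for Trp63 without wildtype replicate 2 (0.0248), wildtype replicate 3 (0.0318) or gene trap replicate 5 (0.0348), while no adjusted p of the 7 genes fell below 0.05 in any of these fits. The median of the 7 differences was -0.31, beside 0.00 over all tested genes, of which 48.6% were lower in gene trap tumors. No more is read from that median, since the 7 genes were chosen with results of these tumors known.

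**Figure D5:**
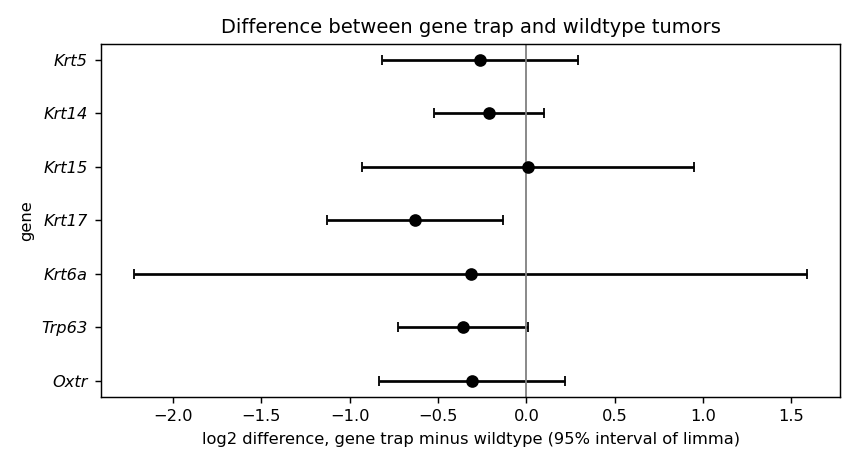
Log2 difference of gene trap minus wildtype tumors (x axis) for each of the 7 genes, as points with the 95% interval of the limma fit (n = 5 a group). The interval of Krt17 (-1.13 to -0.13) is the only 1 that leaves out 0, that of Krt6a (-2.22 to 1.59) is the widest, and adjusted p was 0.9997 for all 7.

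The related lists did not pass either. Over all tested genes, 48.6% were lower in gene trap tumors and 2.28% had an unadjusted p under 0.05. In the basal list 18 of 25 genes were lower and 7 higher in gene trap tumors, with a median log2 difference of -0.07 and 0 genes with an unadjusted p under 0.05. In the p63 list 17 of 23 were lower, with a median of -0.04, and 0 passed at an unadjusted p under 0.05. In the contractile list 10 of 11 genes were lower, with a median of -0.37. Of these, 2 had an unadjusted p under 0.05 by limma, Myh11 at -0.67 (SE 0.25) and Myl9, the myosin regulatory light chain, at -0.37 (SE 0.16), and 0 had an adjusted p under 0.05. The luminal list had 8 of 14 lower, with a median of -0.03. Fibroblast genes were higher in 7 of 8 cases (median 0.08), endothelial genes lower in 4 of 4 (median -0.13) and immune genes lower in 3 of 4 (median -0.09), each with 0 genes at an unadjusted p under 0.05.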

How the data were processed

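Tumor RNA was extracted with Trizol and sequenced from TruSeq Stranded Total RNA libraries. The submitters' processing notes name Partek, STAR 2.7.8a, DESeq2 and mm39. The annotation, counter and strand setting are not given in the sources used here. The deposited signal values are estimated reads per gene that the authors normalized by median ratio before deposition. They hold fractions and 0 zeros, so whole reads and depth could not be recovered. Of 16 value columns, 10 matched a tumor's label by name, and 6, named by animal number, were not used. Symbols were found for 22899 of 23609 gene IDs.

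A pseudocount of 1 was added before the log2 step. The 21034 genes averaging 10 or more over the tumors were tested with limma 3.58.1 (R 4.3.3) between genotypes, with a mean-variance trend, and p was adjusted over them by Benjamini-Hochberg. Exact permutation tests were two-sided. Correlations and list scores (mean z) are descriptions. Litters and mice are not tied to the tumors in the labels, so p-values measure the spread between tumors. Transcript lengths came from GENCODE for an older build, and the promoter window came from RefSeq. The TATA-type motif was chosen after the window was read. The 7 genes, the lists and the question were chosen with earlier results of these data known. The text names the 7 genes, Resf1, the 5 genes most like Trp63, Krt5, Krt14 and the score, and the 3 most abundant genes of the lists it describes. Other genes were named after their values were seen. A gene that this rule names for Trp63 is not reported here.

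The genotype comparison of the remaining lists gave adipocyte (2 of 2 genes lower), skeletal muscle (2 of 2 higher) and hair follicle (2 of 2 higher). The 9 other hair follicle genes had no row under their symbol. The comparison also gave vascular (4 of 5 lower), oxytocin system (3 of 4 higher) and other keratin genes (7 of 13 higher). In the squamous and keratinocyte list 3 of 5 tested genes were higher. Each of these lists had 0 genes at an unadjusted p under 0.05.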

Additional observations from a re-analysis of the deposited data

Results flagged for a closer look

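Gene trap replicate 5 lay far above the other 4 gene trap tumors for Krt5, at a normalized value of 1685, with a gap to the next tumor of 0.81 of the group's whole range. The same tumor lay far above the others of its genotype for Krt15, at 569, with a gap of 0.81 of the range. The critical value for 5 tumors is 0.71. For the 7 genes this rule was applied to normalized values without the log2 step used for the fits and correlations. It was not run on log2 values, where a high value stands out less, so the flags hold for the unlogged scale only. These 2 were the only flags among 16 groups of values examined (the 7 genes and their mean score in each genotype), and chance flags about 1 in 20 groups. In this tumor Krt10 was 671, and the summed value of the hair follicle genes Krt71 and Msx2 was 467, against 34.2 to 200.4 over the other 9 tumors. The part of these genes in the Krt5 and Krt15 values was not tested.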

How the results depend on the processing

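The 7 log2 differences were recomputed under 18 settings each, 126 values in all, and 119 kept their direction. With 1 tumor left out, Krt15 ranged from -0.38 to 0.26 and Krt6a from -0.95 to 0.23. Those that turned were Krt15, at -0.013 with quantile normalization, -0.09 and -0.19 without wildtype replicates 3 and 4 and -0.38 without gene trap replicate 5, and Krt6a, at 0.04 without wildtype replicate 4 and 0.23 and 0.12 without gene trap replicates 1 and 2. Under every setting 0 genes had an adjusted p under 0.05. Genes with an unadjusted p under 0.05 numbered 308 to 692 with 1 tumor left out (308 without wildtype replicate 4) and 326 to 580 under the other settings, against 479. The median of the 7 differences ranged from -0.43 to -0.16 with 1 tumor left out.

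The median r of Trp63 with the 5 keratins was -0.29 for deviations from the genotype means and 0.10 to 0.38 with 1 tumor left out, against 0.15. The median r of the 10 keratin pairs was -0.043 without the 2 tumors farthest on the first gene and 0.11 to 0.29 with 1 tumor left out, against 0.20. The r of Krt17 and Krt6a was -0.48 without the 3 tumors lowest in Krt6a. Of 420 recomputed pair correlations, 406 moved by less than their jackknife SE. That SE is computed from the fits with 1 tumor left out, which are themselves among the 420. It was as large as 0.62 for Krt5 and Oxtr, so this count does not measure stability. The cause of the shifts was not tested. The count tests edgeR and DESeq2 were not run, since the values are not whole counts. The labels do not say that equal replicate numbers pair the tumors. Deviations of same-numbered tumors correlated at -0.16 to 0.15 (mean -0.0098). Differently numbered tumors were not compared, so these values cannot settle whether tumors are paired. With the replicate block, 426 genes had an unadjusted p under 0.05 and 0 an adjusted p under 0.05, Trp63 was among the 426, and the median difference of the 7 genes was -0.31.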
